A study of Mus musculus with 27 samples.

Results

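The 37 protein-coding genes of the Wnt ligand, frizzled receptor, secreted frizzled-related protein (Sfrp) and Dickkopf (Dkk) families were followed through the RNA sequencing libraries of mouse jejunal organoids and 2 reference cultures. They were chosen by gene symbol alone, without use of their values, and are 37 of the 22524 genes counted. There were 19 Wnt ligands, 10 frizzleds (Fzd1 to Fzd10), 4 Sfrps (Sfrp1, Sfrp2, Sfrp4 and Sfrp5) and 4 Dkks (Dkk1 to Dkk4).

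Wnt proteins are secreted, lipid-modified ligands that bind frizzled receptors together with the co-receptors Lrp5 and Lrp6. In the canonical branch this stabilises beta-catenin, which then acts with Tcf/Lef factors on target genes such as Axin2. Sfrps bind Wnt proteins outside the cell, and Dkks bind Lrp5 and Lrp6. The branch maintains the Lgr5+ stem cells of the intestinal crypt, where Wnt3 is known as a product of Paneth cells and Fzd7 as a receptor of the stem cells, while in the intact gut further Wnt ligands come from the stroma.

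The 27 libraries were made from poly(A) RNA. Organoid cultures came from the distal jejunum of 9 male adult C57BL/6J wild-type mice, 3 littermates from each of 3 facilities, of which SR and SE were specific pathogen-free (SPF) and GF was germ-free, and were kept in Matrigel with a commercial growth medium. Each culture gave 1 library labelled untreated (medium exchanged) and 1 labelled TNF-treated (5 ng/mL murine tumour necrosis factor for 8 hr). The m-ICc12 cells are described in the study's text as an immortalised mouse line from the small intestinal epithelium. They gave 1 library of each label under each of 3 replicate numbers. Untreated mouse embryonic fibroblasts (MEFs) gave 3 libraries. Each facility contributed 1 set of littermates, so that litter and facility cannot be told apart. Nothing in the labels says that the m-ICc12 or MEF replicates were independent cultures of separate origin, and p-values for these groups measure only the spread between the libraries.

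There were 12 pairs of libraries, 9 of organoid cultures and 3 of m-ICc12 replicate numbers. In each pair the labelled treatment is opposite to the one coded in the names under which the counts were deposited. The summed level of 4 TNF target genes (Nfkbia, Tnfaip3, Nfkb2 and Relb) in CPM, counts scaled to a common library size after TMM normalization, went against the labels: it was 360 to 517 CPM in the 9 organoid libraries labelled untreated and 101 to 146 CPM in the 9 labelled TNF-treated, and 248 to 320 against 89.6 to 108 CPM in the m-ICc12 libraries. All groups are nevertheless named by their label, and a direction by treatment is a direction by label. By the names of the deposited counts each such direction is the opposite. By these names the organoid and m-ICc12 libraries labelled untreated are the TNF-treated ones. The comparisons of cell types use the libraries labelled untreated, and with the treatment exchanged within pairs they called 13, 20 and 17 members, against 13, 18 and 17 as labelled. The counts on genes lay between 6071103, in the m-ICc12 library of replicate 1 labelled TNF-treated, and 43843615. Expression of a gene was called detected above a floor of 3 counts, which was worth 0.0657 to 0.523 CPM depending on the library.

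The cell types were checked with marker genes. All 6 intestinal epithelial markers (Vil1, Cdx1, Cdx2, Fabp2, Lgals4 and Cdh17) were above the floor in every organoid and MEF library and every m-ICc12 library labelled untreated, and it was their summed level that differed. It was 4539 to 5432 CPM in organoids labelled untreated, 43.7 to 79.4 CPM in m-ICc12 cells with this label and 9.02 to 11.8 CPM in MEFs. The 6 general epithelial markers (Epcam, Cdh1, Krt8, Krt18, Krt19 and Krt20) summed to 5444 to 6487, 2281 to 2785 and 16.6 to 19.5 CPM in the same groups, and in m-ICc12 cells Krt8, Krt18 and Krt20 carried the sum, with Epcam at 2.07 to 6.83 CPM and Cdh1 at 0.937 to 1.82 CPM. The m-ICc12 libraries also held 5 kidney tubule markers (Pax2, Pax8, Cdh16, Lhx1 and Emx2) at a summed 982 to 1214 CPM, against 1.86 to 6.54 CPM in organoids. The levels of the intestinal and kidney tubule markers thus go against the description of the m-ICc12 cells as intestinal, while the keratins are those of an epithelium, and the cells are called here by the name of the line only. In MEFs the 8 fibroblast markers summed to 5790 to 6970 CPM, carried by Vim, Col1a1 and Col1a2, with Thy1 at 0 counts in each library. The 8 summed to 14.0 to 32.1 CPM in organoids, where Thy1 and Col3a1 were at or under the floor in all libraries labelled untreated, and Col1a1 reached 4.57 CPM. In m-ICc12 cells Vim alone was at 1847 to 3007 CPM.

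The sequences upstream of the leading members of each culture are shown to give the context in which they are transcribed: Wnt3 and Fzd5 led in organoids, Wnt9a was among the leading ligands of m-ICc12 cells, and Wnt10b and Sfrp2 led in MEFs. RefSeq promoter windows (build GRCm38.p6) were matched for 25 of the 37 members, and Wnt7b had no entry. The windows are chr11:103773925-103774149 (+ strand) for Wnt3, chr1:64737752-64738000 (- strand) for Fzd5, chr11:59306680-59306927 (+ strand) for Wnt9a, chr15:98778151-98778400 (- strand) for Wnt10b and chr3:83766071-83766320 (+ strand) for Sfrp2. Each ends just before the annotated start of the gene and is written 5′ to 3′ on the strand of the gene. Capitals mark matches, on either strand, to the TATA box letters TATAAA, the GC box letters GGGCGG, the CCAAT box or the letters ATCAAAG of a TCF/LEF motif, and no match overlapped another kind of motif in the 5 windows.
Wnt3: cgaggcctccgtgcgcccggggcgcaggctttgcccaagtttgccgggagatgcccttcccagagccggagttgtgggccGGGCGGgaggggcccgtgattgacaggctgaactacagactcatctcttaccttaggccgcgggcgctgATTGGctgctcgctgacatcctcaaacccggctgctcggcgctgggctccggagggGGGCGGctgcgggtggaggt
Fzd5: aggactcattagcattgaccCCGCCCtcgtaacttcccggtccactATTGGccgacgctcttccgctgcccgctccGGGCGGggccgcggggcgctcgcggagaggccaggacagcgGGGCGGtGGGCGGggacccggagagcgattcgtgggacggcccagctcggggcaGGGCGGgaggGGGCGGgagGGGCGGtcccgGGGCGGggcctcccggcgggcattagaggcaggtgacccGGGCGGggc
Wnt9a: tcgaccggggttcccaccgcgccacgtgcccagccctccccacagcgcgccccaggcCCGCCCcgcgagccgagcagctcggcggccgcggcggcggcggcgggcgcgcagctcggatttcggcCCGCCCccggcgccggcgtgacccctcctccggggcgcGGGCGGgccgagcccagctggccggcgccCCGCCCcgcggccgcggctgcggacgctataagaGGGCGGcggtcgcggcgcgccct
Wnt10b: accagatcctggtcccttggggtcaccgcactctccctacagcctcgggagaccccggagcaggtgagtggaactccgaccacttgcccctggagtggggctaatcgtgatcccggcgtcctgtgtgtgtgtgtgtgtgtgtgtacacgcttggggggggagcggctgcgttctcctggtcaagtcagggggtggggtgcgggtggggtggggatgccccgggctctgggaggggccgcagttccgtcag
Sfrp2: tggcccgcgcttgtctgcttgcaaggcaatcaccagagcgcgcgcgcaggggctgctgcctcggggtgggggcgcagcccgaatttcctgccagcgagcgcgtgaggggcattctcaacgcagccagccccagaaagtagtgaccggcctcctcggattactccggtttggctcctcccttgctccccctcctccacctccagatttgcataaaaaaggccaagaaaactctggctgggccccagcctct
The Fzd5 window held 9 GC box matches, that of Wnt9a 5 and that of Wnt3 2, while those of Wnt10b and Sfrp2 held none. Over the 250 bases before the RefSeq start, a GC box was matched in 20 of 28 windows of the members and in 32.7% of all 32851 windows, a CCAAT box in 10 of 28 and in 33.9% of all, a TATA box in 4 of 28 and in 12.4% of all, and the TCF/LEF motif in 2 of 28 (Wnt5b and Wnt11) and in 3.21% of all. The median GC content was 69.4% in the members' windows and 52.4% in all windows. These are matches of letters only.

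Of the 37 members, 6 were detected in every one of the 27 libraries, and all 6 were frizzleds (Fzd1, Fzd2, Fzd4, Fzd5, Fzd6 and Fzd7). A further 5 members (Wnt1, Wnt2, Wnt3a, Wnt8b and Dkk1) were above the floor in none. Counted by cell type, 13 members were detected in at least 50% of the 18 organoid libraries, 14 in at least 50% of the 6 m-ICc12 libraries and 21 in at least 50% of the 3 MEF libraries. Among these were 3 ligands in organoids (Wnt3, Wnt5a and Wnt9b), 7 in m-ICc12 cells (Wnt4, Wnt5a, Wnt6, Wnt7a, Wnt7b, Wnt9a and Wnt9b) and 8 in MEFs (Wnt2b, Wnt4, Wnt5a, Wnt5b, Wnt7b, Wnt9a, Wnt10b and Wnt11). Wnt5a was the 1 ligand in all 3 of these lists. No share of all genes detected by the same rule is given beside these counts. The cell types also differ in the number and depth of their libraries, so the counts are not a comparison of the families between cell types.

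**Figure D1:**
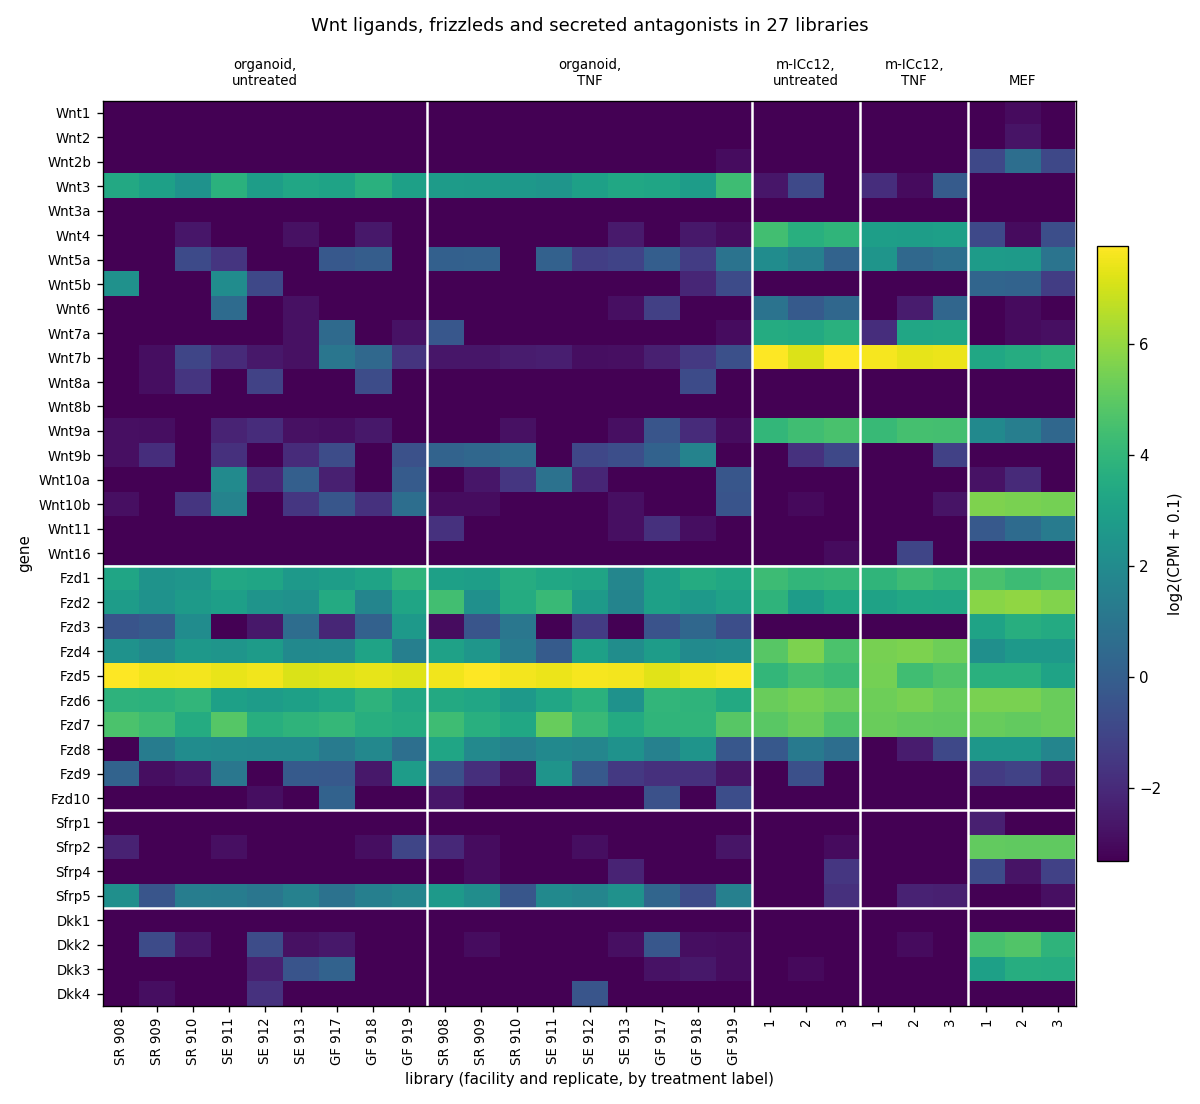
Level of each of the 37 genes (rows, grouped as Wnt ligands, frizzleds, Sfrps and Dkks) in each of the 27 libraries (columns, grouped by cell type and treatment label), as log2(CPM + 0.1). Fzd5 and Wnt3 form continuous rows over the 18 organoid libraries, Wnt7b, Wnt4 and Wnt9a over the 6 m-ICc12 libraries, and Wnt10b, Sfrp2, Dkk2 and Dkk3 over the 3 MEF libraries.

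Wnt3, a ligand of the canonical branch, was the 1 ligand detected in all 18 organoid libraries. Its level was 4.86 CPM at the lowest, 8.65 at the median and 13.6 at the highest in the 9 libraries labelled untreated. In the 3 m-ICc12 libraries with this label it was 0.0586, 0.438 and 0 CPM, and in MEFs 0 counts were found in all 3 libraries. The groups did not overlap. By edgeR's quasi-likelihood test Wnt3 was higher in organoids than in m-ICc12 cells, with a log2 fold change of 5.74 ± 0.94 (SE, adjusted p = 5.5e-05), and against the floor it was at least 79.4-fold higher in organoids than in MEFs (adjusted p = 5.2e-08). In these bulk samples fewer cells of a type and less RNA per cell cannot be told apart. Per kilobase of exon, the scale on which genes were compared, Wnt3 made up 48.1% to 97.2% (median 81.6%) of the summed ligand level in the organoid libraries labelled untreated.

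The leading ligands of m-ICc12 cells were Wnt7b, Wnt9a, Wnt4 and Wnt7a. Wnt7b, an epithelial ligand that also acts in the developing collecting duct, was at 218, 145 and 214 CPM in the 3 libraries labelled untreated and at 195, 164 and 172 CPM in those labelled TNF-treated. It was at 0 to 1.95 CPM (median 0.153) in the 9 organoid libraries labelled untreated, and at 9.61, 11.4 and 13.8 CPM in MEFs. Every m-ICc12 library was above every other library. Wnt7b was lower in organoids than in m-ICc12 cells by a log2 fold change of -8.60 ± 0.66 (SE, adjusted p = 9.0e-09), and higher in m-ICc12 cells than in MEFs by 4.01 ± 0.21 (SE, adjusted p = 4.0e-09). It took 68.8% to 75.1% of the summed ligand level per kilobase in m-ICc12 libraries labelled untreated.

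Wnt9a was at 16.1, 20.4 and 23.9 CPM and Wnt7a, which shares a subgroup with Wnt7b, at 11.1, 10.7 and 13.1 CPM in the m-ICc12 libraries labelled untreated. Wnt4, a ligand of kidney tubule formation, was at 21.2, 12.5 and 15.2 CPM there and above the floor in no organoid library. Wnt4 was at least 93.8-fold higher in m-ICc12 cells than in organoids (adjusted p = 3.1e-08), and Wnt7a at least 101-fold higher in m-ICc12 cells than in MEFs (adjusted p = 2.0e-07). Wnt9a was lower in organoids than in m-ICc12 cells, with a log2 fold change of -8.35 ± 0.65 (SE, adjusted p = 9.8e-09). Wnt6 was lower, at 1.79, 0.788 and 1.202 CPM, and at least 10.9-fold higher in m-ICc12 cells than in MEFs (adjusted p = 0.0016). The m-ICc12 libraries thus held a set of ligands of which organoids had few reads.

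In MEFs the leading ligand was Wnt10b, which is known to act in the canonical branch in mesenchymal cells. It was at 49.8, 46.4 and 44.2 CPM in the 3 libraries and took 72.7% to 75.4% of the summed ligand level per kilobase. In m-ICc12 cells labelled untreated it had at most 1 count in a library, and the level was at least 532-fold higher in MEFs. In the organoid libraries labelled untreated it ranged from 0 to 3.02 CPM (median 0.231), with a log2 fold change of -6.13 ± 0.94 against MEFs (SE, adjusted p = 2.6e-05). Wnt11 (0.760, 1.36 and 2.38 CPM) and Wnt2b (0.427, 1.51 and 0.422 CPM) were detected in all MEF libraries, and in 2 and 0 of the 18 organoid libraries. Wnt5a, a ligand of the non-canonical branch, was shared: it was at 6.67, 6.45 and 1.84 CPM in MEFs, at 4.07, 2.78 and 1.06 CPM in m-ICc12 cells labelled untreated, and at 0 to 0.863 CPM in organoids. The 2 reference cultures did not pass the test for a difference in Wnt5a (log2 fold change -0.97 ± 0.64, SE, adjusted p = 0.21). The summed ligand level per kilobase was 1.94 to 9.18 CPM in organoids, 42.9 to 59.5 in m-ICc12 cells and 17.3 to 19.4 in MEFs.

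**Figure D2:**
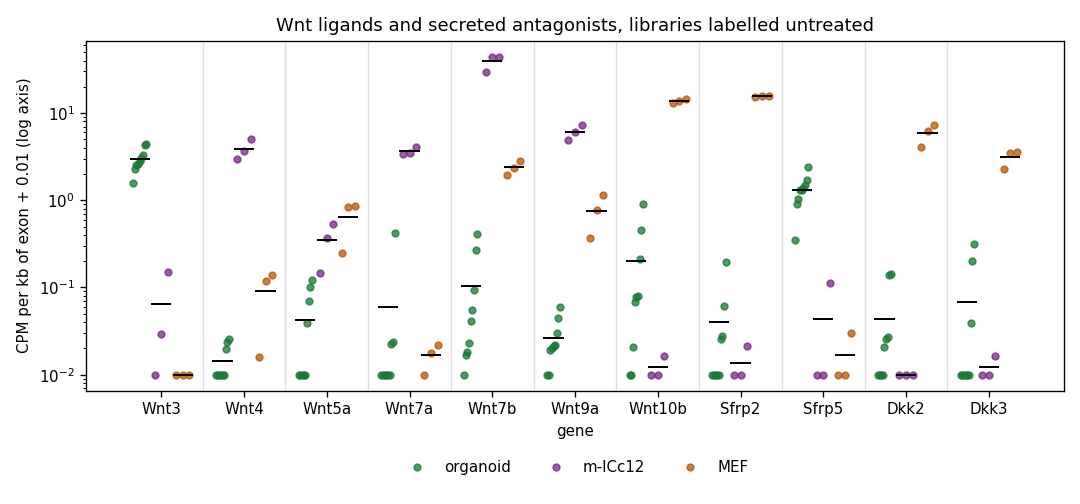
Level of 7 Wnt ligands, 2 Sfrps and 2 Dkks in the libraries labelled untreated, as CPM per kb of exon plus 0.01 on a log axis. Each point is a library (9 organoid, 3 m-ICc12 and 3 MEF) and each bar a group mean. Wnt3 and Sfrp5 are highest in organoids, Wnt4, Wnt7a, Wnt7b and Wnt9a in m-ICc12 cells, and Wnt10b, Sfrp2, Dkk2 and Dkk3 in MEFs.

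Counted over the comparison of organoids with m-ICc12 cells, 17 members passed the filter on low counts (at least 10 counts in 50% of the libraries of a group), 4 were higher in organoids (Wnt3, Fzd3, Fzd5 and Sfrp5) and 9 lower at an adjusted p under 0.05. Of all genes tested, 31.6% were higher and 29.3% lower. Against MEFs, 22 members passed the filter, with 3 higher in organoids (Wnt3, Fzd5 and Sfrp5; 34.6% of all genes) and 15 lower (32.6% of all genes). Between m-ICc12 cells and MEFs, 22 passed, with 7 higher in m-ICc12 cells (28.1% of all genes) and 10 lower (31.2% of all genes). The median log2 fold change of the members tested was -1.01, -2.88 and -0.70, and that of all genes 0.03, 0.03 and -0.05. The 3 comparisons share libraries with each other. A member can pass the filter through the group where it is high alone, and the counts do not cover the members left out.

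The frizzleds were present in all cultures, with a different leading receptor in each. Fzd5, a receptor of crypt and Paneth cells, was at 143 CPM at the lowest, 169 at the median and 218 at the highest in the 9 organoid libraries labelled untreated. It was at 16.2, 22.8 and 18.7 CPM in m-ICc12 cells and at 12.9, 12.9 and 8.59 CPM in MEFs. Each organoid library was thus above all libraries of the other cultures. The log2 fold change of organoids was 3.19 ± 0.17 against m-ICc12 cells (SE, adjusted p = 9.1e-11) and 3.92 ± 0.19 against MEFs (SE, adjusted p = 1.9e-11). Per kilobase, Fzd5 gave 59.6% to 73.7% of the summed frizzled level in organoids, 7.76% to 10.1% in m-ICc12 cells and 3.17% to 4.37% in MEFs. The summed level itself was closer between the cultures, at 29.96 to 45.2 CPM per kilobase in organoids, 26.9 to 33.8 in m-ICc12 cells and 39.3 to 43.6 in MEFs.

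The other frizzleds of organoids were lower. Fzd7, the stem cell receptor, was at 11.1 to 28.6 CPM (median 14.6) and took 6.52% to 16.2% of the summed frizzled level in the organoid libraries labelled untreated. It was at 30.7, 37.2 and 26.2 CPM in m-ICc12 cells and at 36.4, 34.3 and 37.2 CPM in MEFs, and was lower in organoids than in either (log2 fold change -0.87 ± 0.29, adjusted p = 0.016, and -1.08 ± 0.28, adjusted p = 0.0028). Without m-ICc12 replicate 2 the first of these adjusted p-values was 0.092. Fzd6, which is known for planar cell polarity, was at 6.93 to 15.7 CPM in organoids, at 38.0, 43.4 and 37.7 CPM in m-ICc12 cells and at 46.5, 46.6 and 37.6 CPM in MEFs. It was lower in organoids by -1.82 ± 0.27 and -1.95 ± 0.26 on the log2 scale (SE, adjusted p = 1.9e-05 and 6.1e-06). Fzd1 was lower in organoids as well, by -1.01 ± 0.33 against m-ICc12 cells (SE, adjusted p = 0.015; 0.072 without m-ICc12 replicate 1) and -1.39 ± 0.31 against MEFs (SE, adjusted p = 0.00084).

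Fzd2, Fzd3 and Fzd4 separated the 2 reference cultures. Fzd2 led in MEFs, where its 55.4, 61.5 and 51.4 CPM gave 35.3% to 38.5% of the summed frizzled level. It was at 14.8, 6.90 and 9.69 CPM in m-ICc12 cells and lower there than in MEFs (log2 fold change -2.48 ± 0.25, SE, adjusted p = 2.8e-06). Fzd4, the receptor of Norrin, was at 29.4, 47.3 and 24.9 CPM in m-ICc12 cells, 4.51 to 6.37 CPM in MEFs and 2.66 to 8.43 CPM in organoids. MEFs and organoids did not pass the test for Fzd4 (log2 fold change -0.16 ± 0.44, SE, adjusted p = 0.76), whereas m-ICc12 cells were above MEFs by 2.52 ± 0.29 (SE, adjusted p = 8.4e-06). Fzd3 had 0 counts in all 6 m-ICc12 libraries. It was at 8.52, 12.1 and 11.01 CPM in MEFs, at least 120-fold higher than in the m-ICc12 libraries labelled untreated. In organoids it ran from 0 to 6.38 CPM.

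Fzd8 was detected in 17 of the 18 organoid libraries, in 4 of the 6 m-ICc12 libraries and in all 3 MEF libraries. Fzd9 was detected in 12 of the 18 organoid libraries and did not pass the test in any comparison of cell types, and Fzd10 was detected in 3 organoid libraries and in no other. The order of the per-kilobase means was Fzd5, Fzd7, Fzd6, Fzd1 and Fzd2 in organoids (24.9 ± 3.5, 3.71 ± 1.39, 2.30 ± 0.72, 2.01 ± 0.70 and 1.80 ± 0.64, SD, n = 9), of which the last 4 overlap with their neighbour at 1 SD. In m-ICc12 cells it was Fzd6, Fzd7, Fzd4 and Fzd1 (8.25 ± 0.67, 6.92 ± 1.22, 5.04 ± 1.76 and 4.12 ± 0.49, SD, n = 3), and each overlaps with its neighbour at 1 SD. In MEFs it was Fzd2, Fzd6, Fzd7 and Fzd1 (15.3 ± 1.4, 9.05 ± 1.08, 7.93 ± 0.32 and 5.32 ± 0.56, SD, n = 3), with overlap at 1 SD between Fzd6 and Fzd7.

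**Figure D3:**
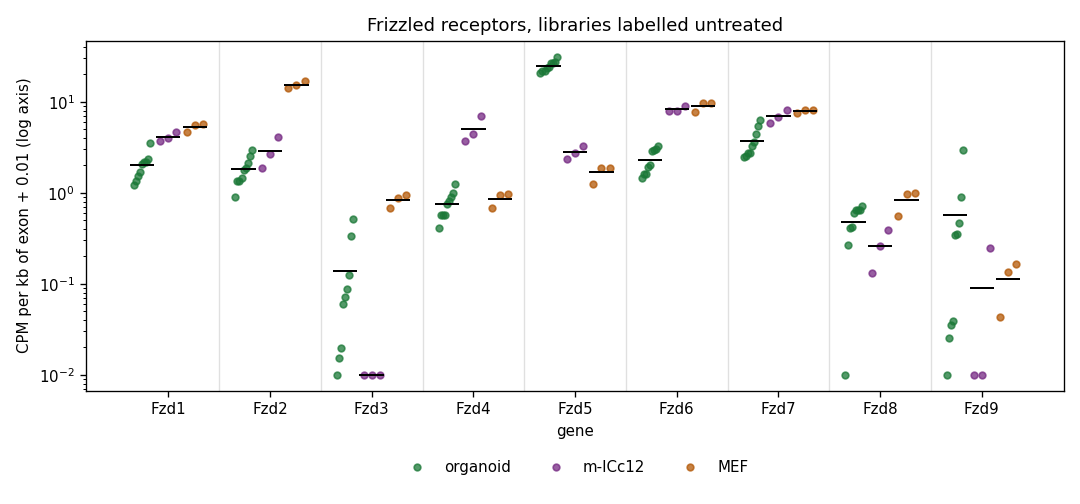
Level of Fzd1 to Fzd9 in the libraries labelled untreated, as CPM per kb of exon plus 0.01 on a log axis, with a point for each library (9 organoid, 3 m-ICc12 and 3 MEF) and a bar for each group mean. Fzd5 is highest in organoids, Fzd4 in m-ICc12 cells and Fzd2 in MEFs, and Fzd3 sits at the bottom of the axis in m-ICc12 cells.

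The secreted antagonists were mostly a feature of the MEF libraries. Sfrp2 was at 33.9, 33.3 and 32.8 CPM in MEFs, took 99.2% to 99.9% of the summed Sfrp level per kilobase there, and was at least 379-fold higher there than in m-ICc12 cells. It reached 0.399 CPM in organoids labelled untreated (log2 fold change -8.98 ± 0.82 against MEFs, SE, adjusted p = 7.1e-08). Dkk2 was at 23.3, 27.1 and 14.9 CPM and Dkk3 at 7.71, 12.1 and 11.6 CPM in MEFs. Both were above the floor in none of the 6 m-ICc12 libraries. Against those labelled untreated, MEFs were at least 248-fold and 119-fold higher. In organoids labelled untreated, Dkk2 reached 0.490 CPM and Dkk3 1.04 CPM, and both were lower than in MEFs (log2 fold change -7.32 ± 0.97 and -5.66 ± 1.29, SE, adjusted p = 5.6e-06 and 0.0011). Dkk1 had 0 counts in every library.

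Sfrp5 was the antagonist of the organoids. It was detected in all 18 libraries, at 0.655 CPM at the lowest, 2.49 at the median and 4.54 at the highest in those labelled untreated. In m-ICc12 cells with this label it was at 0, 0 and 0.192 CPM, and in MEFs it had at most 1 count. Organoids were higher by a log2 fold change of 5.21 ± 1.31 against m-ICc12 cells (SE, adjusted p = 0.0026) and at least 21.7-fold higher against MEFs (adjusted p = 7.2e-05). No other Sfrp and no Dkk was detected in 50% of the organoid libraries.

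The remaining genes of the pathway were taken from lists, and the counts of genes tested can be read against the same shares of all genes as above. Of 9 genes of the R-spondin axis, which amplifies Wnt signals at the receptor, 5 were tested against m-ICc12 cells, of which 3 were higher in organoids (Lgr4, Lgr5 and Rnf43) and Lgr6 was lower. Against MEFs 7 were tested, with 4 higher in organoids (Lgr4, Lgr5, Rnf43 and Znrf3) and 3 lower (Lgr6, Rspo2 and Rspo3). Rspo1, Rspo2, Rspo3 and Rspo4 were all at or under the floor in m-ICc12 cells, and the first 3 also in organoids, whereas MEFs had 6.41, 6.01 or 2.37 CPM of Rspo2. Of the 4 genes of Wnt secretion and removal, 3 were tested against m-ICc12 cells with 2 lower in organoids, and 4 against MEFs with 3 lower, and none was higher. Wls, the carrier of Wnt proteins to the cell surface, was at 41.2 to 86.5 CPM in organoids, 191 to 258 CPM in m-ICc12 cells and 253 to 295 CPM in MEFs, and was lower in organoids by -1.76 ± 0.17 and -2.13 ± 0.16 on the log2 scale (SE, adjusted p = 1.6e-07 and 6.4e-09). Of the 6 co-receptors, 5 were tested in each comparison. Against m-ICc12 cells 2 were higher in organoids (Ror2 and Ptk7) and none lower, while against MEFs Lrp5 was higher and Ror2, Ptk7 and Ryk were lower. Lrp6 did not pass the test in either.

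Of 17 Wnt target genes, 15 were tested against m-ICc12 cells, with 9 higher and 2 lower in organoids, and 16 against MEFs, with 9 higher and 4 lower. Their summed level was 925 to 1306 CPM in organoids labelled untreated, 883 to 1316 CPM in m-ICc12 cells with this label and 731 to 931 CPM in MEFs, so that organoids and m-ICc12 cells overlapped. Axin2 was at 92.9 to 154 CPM in the organoid libraries labelled untreated, with a log2 fold change of 6.22 ± 0.24 against m-ICc12 cells (SE, adjusted p = 2.0e-12) and 6.58 ± 0.27 against MEFs (SE, adjusted p = 2.5e-12). Of 16 genes of the beta-catenin relay, 15 were tested against m-ICc12 cells, with 4 higher and 2 lower in organoids, and 16 against MEFs, with 3 higher and 7 lower. Of the 8 other antagonists and Dkk receptors, 2 were tested in each comparison: Kremen2 was higher than in both cultures and Kremen1 lower than in MEFs. Sost, Sostdc1, Frzb and Dkkl1 were at or under the floor in organoids, m-ICc12 cells and MEFs alike.

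The comparison by treatment label asked whether the members responded to TNF. In organoids 13 members passed the filter and none passed the test, against 1.39% of all genes. At an unadjusted p under 0.05, 1 did in edgeR, as did 1072 of all 12104 genes tested, and 1 in DESeq2, which also made no call. Wnt3 was at 5.34 to 20.0 CPM (median 6.80) in the libraries labelled TNF-treated and at the values given above in those labelled untreated, so that the groups overlapped, with a log2 fold change of -0.08 ± 0.26 (SE, adjusted p = 0.98). It was higher in the library labelled TNF-treated in 5 of 9 cultures and lower in 4. Fzd5 was at 155 to 213 CPM (median 191), higher in 8 of 9 cultures, with a log2 fold change of 0.13 ± 0.08 (SE, adjusted p = 0.75). Sfrp5 was at 0.481 to 6.16 CPM (median 3.25), higher in 5 and lower in 4 cultures (log2 fold change 0.27 ± 0.51, SE, adjusted p = 0.95).

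The 1 member with an unadjusted p under 0.05 in edgeR was Wnt9b, a ligand of the canonical branch. It was at 0 to 0.576 CPM (median 0.159) in the libraries labelled untreated and at 0 to 2.98 CPM (median 1.03) in those labelled TNF-treated, higher in 7 of 9 cultures. Its log2 fold change was 2.36 ± 1.00 (SE, adjusted p = 0.44 in edgeR's quasi-likelihood test). Wnt5a was also higher in 7 of 9 cultures, at 0 to 1.74 CPM against 0 to 0.863 CPM, with a log2 fold change of 1.49 ± 1.02 (SE, adjusted p = 0.78). The groups overlapped for both genes. With the culture as a block, again no member was called. The pathway lists gave 2 calls by label, Ctnnb1, which encodes beta-catenin, and Ascl2, a stem cell factor and Wnt target. Both were lower with the TNF label (log2 fold change -0.25 ± 0.06 and -1.70 ± 0.23, SE, adjusted p = 0.023 and 3.5e-05 in edgeR). By the names of the deposited counts, both were higher in the TNF-treated libraries. Of the 4 stem cell markers (Lgr5, Ascl2, Olfm4 and Smoc2), Ascl2 and Olfm4 were called lower with the TNF label. Lgr5 and Smoc2 were not called. Lgr5 was at 83.2 to 220 CPM in the organoid libraries labelled untreated and 90.1 to 263 CPM in those labelled TNF-treated. The 4 markers, Ascl2 among them, summed to 1075 to 2860 CPM (median 1528) in the organoid libraries labelled untreated. In those labelled TNF-treated the sum was 714 to 1686 CPM (median 967). The part of the 4 markers in these calls was not tested.

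In m-ICc12 cells 13 members passed the filter and none was called, against 0.110% of all genes. At an unadjusted p under 0.05, 2 members did in edgeR, as did 556 of all 11861 genes tested, and 3 members in DESeq2, which also made no call. Wnt4 was at 7.32, 7.09 and 7.54 CPM in the libraries labelled TNF-treated and at 21.2, 12.5 and 15.2 CPM in those labelled untreated, in the order of the replicates. The groups did not overlap, and the log2 fold change was -1.14 ± 0.34 (SE, adjusted p = 0.61 in edgeR). Fzd8 was at 0, 0.0809 and 0.432 CPM against 0.733, 2.26 and 1.49 CPM, with a log2 fold change of -2.91 ± 1.29 (SE, adjusted p = 1.00 in edgeR). Wnt7a had 1 count (0.174 CPM) in replicate 1 labelled TNF-treated, the library with 6071103 counts, and 9.27 and 9.95 CPM in replicates 2 and 3. Wnt7b was at the levels given above (log2 fold change -0.11 ± 0.18, SE, adjusted p = 1.00).

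The difference between the responses of m-ICc12 cells and organoids was tested as an interaction. Of 18 members tested none was called, against 0.159% of all genes. At an unadjusted p under 0.05, 2 members did in edgeR, as did 857 of all 13183 genes tested, and 2 members in DESeq2, again with no call. In edgeR the 2 members were Fzd8, with a difference in log2 fold change (m-ICc12 minus organoid) of -3.44 ± 1.3 (SE, adjusted p = 0.56), and Fzd5, with 0.47 ± 0.22 (SE, adjusted p = 0.76). In the simulated data for this comparison, 27.9% of genes changed by 1 on the log2 scale were recovered. The share was 71.9% for the organoid and 62.2% for the m-ICc12 comparison by label. Of the simulated calls, 5.17%, 4.67% and 8.40% in the same order were of unchanged genes. The changed genes were drawn at random from all genes tested, so that these rates do not describe members near the floor.

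**Figure D4:**
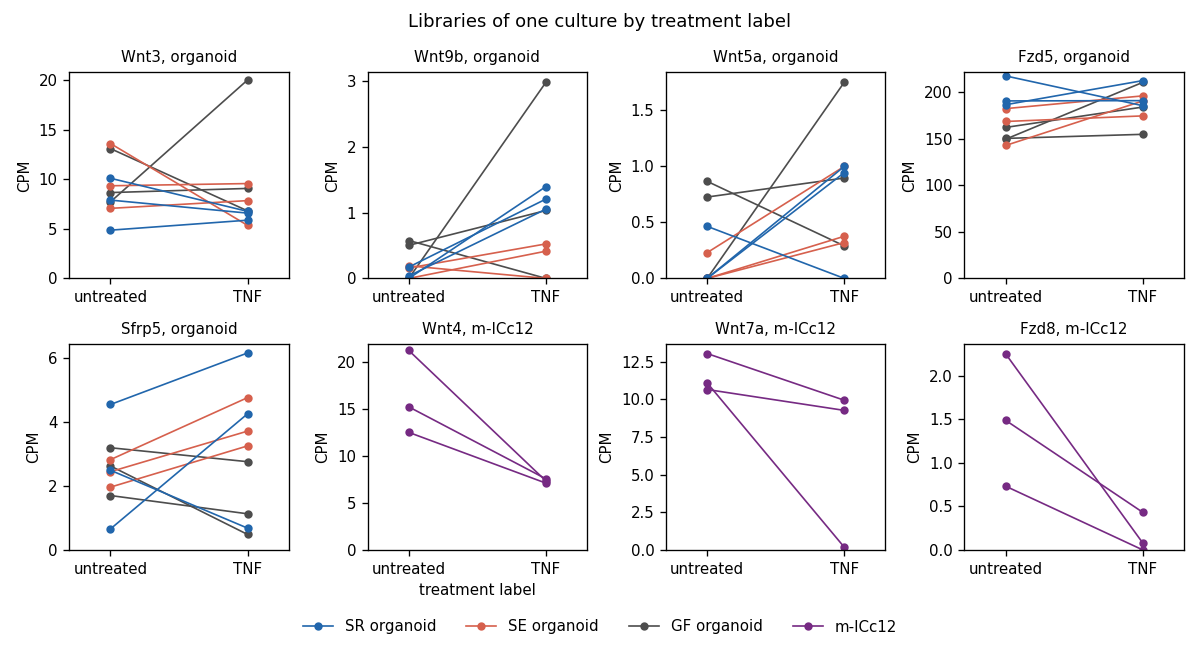
CPM of Wnt3, Wnt9b, Wnt5a, Fzd5 and Sfrp5 in organoids and of Wnt4, Wnt7a and Fzd8 in m-ICc12 cells, each from 0, by treatment label. A line joins the libraries of 1 organoid culture (9) or of 1 m-ICc12 replicate number (3). Wnt3 goes up in 5 cultures and down in 4, Wnt9b goes up in 7 of 9, and Wnt4 goes down in 3 of 3 same-numbered pairs.

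The facility of the donor mouse was compared in the libraries labelled untreated. Between 3 GF and 6 SPF cultures, 16 members were tested and none was called, against 0.0325% of all genes. In edgeR, 2 had an unadjusted p under 0.05, as had 491 of all 12315 genes tested, and 2 members had one in DESeq2, which made no call. Wnt7b had 62, 38 and 5 counts in the GF libraries and 0 to 7 counts in the SPF libraries (log2 fold change 3.31 ± 1.46, SE, adjusted p = 1.00 in edgeR). It was the 1 member called when all 27 libraries were fitted together. Wnt5b had 0 counts in the 3 GF libraries and 128, 0, 0, 108, 13 and 0 in the SPF libraries (adjusted p = 1.00 in edgeR). Wnt3 was at 8.65, 13.1 and 7.71 CPM in GF cultures and at 4.86 to 13.6 CPM in SPF cultures (log2 fold change 0.16 ± 0.40, SE, adjusted p = 1.00).

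Between the SPF facilities SR and SE, none of 13 members was called, and 0.00% of all genes were. Again 2 had an unadjusted p under 0.05 in edgeR, as had 486 of all 12219 genes tested, and 2 members in DESeq2, which made no call on a member. Wnt10a had 0 counts in the 3 SR libraries and 101, 4 and 23 in the SE libraries (adjusted p = 1.00 in edgeR). Fzd6 was at 14.3, 13.9 and 15.7 CPM in SR and at 7.71, 6.93 and 7.71 CPM in SE cultures without overlap (log2 fold change 0.98 ± 0.40, SE, adjusted p = 1.00 in edgeR). For the difference in response by label between GF and SPF cultures, none of 17 members passed the test, with 0.00% of all genes called. Wnt5b and Fzd9 were below 0.05 in edgeR before adjustment, as were 323 of all 12640 genes tested, and 2 members in DESeq2, which made no call on a member.

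Many low members were seen in 1 organoid library of a culture and not in the other. Of the 37 members, 14 were above the floor in some but fewer than 50% of the 18 organoid libraries, with 0 to 6 of them in a library. Wnt5b had 128 counts in SR culture Z908 labelled untreated and 108 in SE culture Z911 with this label, and 0 in the partner library of each. In SE culture Z911 labelled untreated, Wnt5b, Wnt6, Wnt7b, Wnt10a and Wnt10b were all above the floor (108, 36, 4, 101 and 79 counts), while in the partner library only Wnt10a was, with 19 counts. In GF culture Z917 labelled untreated, Wnt7a and Wnt7b had 42 and 62 counts, and 0 and 2 in the partner. In SR culture Z908, Fzd8 had 0 counts in the library labelled untreated and 315 in the other.

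Counted over all members and the 9 cultures, there were 16 cases of a member in a culture, in 11 of 37 members, with at least 30 counts in 1 library and at most 3 in the other. This limit was chosen after the values were seen. The high library was labelled TNF-treated in each case for Fzd8 (1 culture), Wnt5a and Wnt9b (3 cultures each) and untreated in each case for Wnt5b, Wnt6, Wnt7a, Wnt7b, Wnt10b, Dkk3, Fzd3 and Fzd9. Over all 22524 genes such a case was seen in 2196, or 9.75%, as against 29.7% of the members, and this share is not adjusted for expression level. The 8 fibroblast markers summed to 14.0 CPM in SE culture Z911 labelled untreated and 14.3 CPM in its partner, to 32.1 against 18.2 CPM in GF culture Z917, and to 20.7 against 17.9 CPM in SR culture Z908, with Thy1 and Col3a1 at or under the floor in each. The part of other cells in these values was not tested. The partner library of Z911 had 11440041 counts, the lowest total among the organoid libraries.

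Pairs of members that neighbour each other in the genome were compared by position (GRCm38, GENCODE vM21). There were 4 such pairs within 100 kb. Wnt3 (chr11:103774150-103817957, + strand) and Wnt9b (chr11:103727364-103749821, - strand) lie 24.3 kb apart on opposite strands, and both were among the 3 ligands of organoids. Wnt9a lies 16.2 kb from Wnt3a on chromosome 11, Wnt6 6.2 kb from Wnt10a on chromosome 1, and Wnt10b 11.7 kb from Wnt1 on chromosome 15. Of these, Wnt10b was at 44.2 to 49.8 CPM in MEFs while Wnt1 was above the floor in no library, and Wnt9a was at 16.1 to 23.9 CPM in m-ICc12 cells labelled untreated while Wnt3a had 0 counts. In these pairs a member with no detected transcript lay beside a leading ligand. Wnt5b overlaps the protein-coding gene Fbxl14 on the opposite strand over 2963 bases. Other members overlap opposite-strand genes that do not code for protein and were not counted. Among them are Wnt5a (3319 bases), Wnt6 (2463), Wnt7b (2222), Fzd5 (1512) and Sfrp2 (464). The use of strand in counting is not stated, and the kit is called stranded in the labels but not in the study's methods. The source of the reads of Wnt5b and of these members is therefore uncertain where they overlap.

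Across the 9 organoid cultures, with the 2 libraries of each averaged as log2(CPM + 0.5), Wnt3 was compared with the summed level of 6 Paneth cell markers (Lyz1, Mmp7, Ang4, Defa17, Defa24 and Itln1), with Lgr5 and with Axin2. The Paneth marker sum was 214 to 550 CPM in the libraries labelled untreated and 181 to 500 CPM in those labelled TNF-treated. Wnt3 and the Paneth sum had Pearson's r = 0.572 (two-sided exact permutation p = 0.106, adjusted over the 3 relations 0.159) and Spearman's rho = 0.433 (exact permutation p = 0.250, adjusted 0.375). Without the 2 cultures farthest from the median of the Paneth sum, r was 0.379. With Axin2, r was 0.681 (exact permutation p = 0.0381, adjusted 0.114) and rho 0.533 (exact permutation p = 0.147, adjusted 0.375), and r fell to 0.322 without the 2 cultures farthest from the median of Axin2. Leaving these out also narrows the range of Axin2, so that the fall does not show that the relation rests on them. With Lgr5, r was 0.170 (exact permutation p = 0.665, adjusted 0.665) and rho 0.250 (exact permutation p = 0.521, adjusted 0.521), and r was 0.260 without 2 cultures. None of the 3 relations passed the threshold after adjustment.

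The highest Wnt3 level, 20.0 CPM, was that of GF culture Z919 labelled TNF-treated. The same library had 500 CPM of the Paneth markers, 263 CPM of Lgr5 and 143 CPM of Axin2, of which the value for Lgr5 was the highest among the 18 libraries. Within facilities there were 3 cultures each, too few for a correlation.

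**Figure D5:**
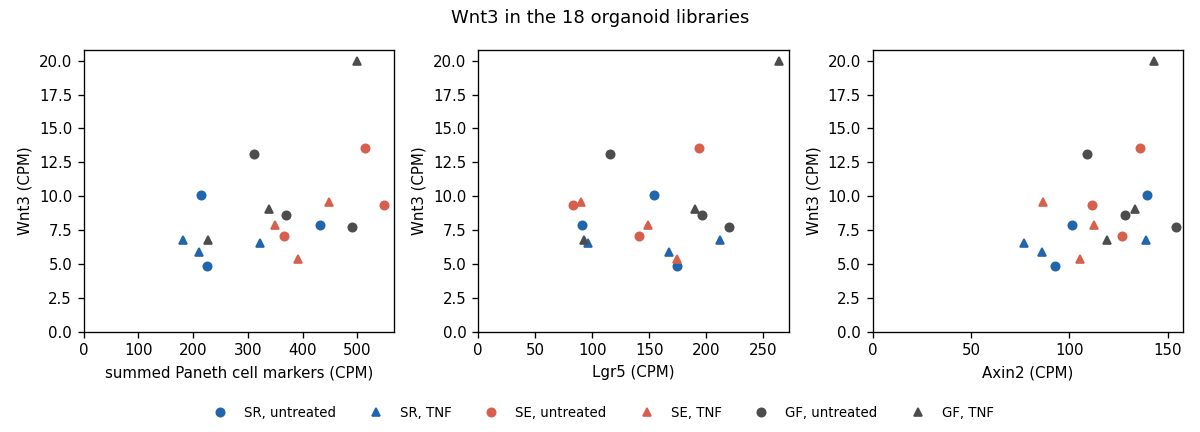
Wnt3 in CPM against the summed Paneth cell markers, Lgr5 and Axin2, each in CPM and from 0, in the 18 organoid libraries, coloured by facility, with circles for the label untreated and triangles for the label TNF-treated. The library of GF culture Z919 labelled TNF-treated stands above the others at 20.0 CPM of Wnt3, and the other 17 lie between 4.86 and 13.6 CPM.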

How the data were processed

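Reads were single-end. Before deposit, the authors clipped adapters (Trimmomatic), cut 5 bases from the 3′ end, and used STAR with GRCm38 and Ensembl genes. Counting is credited to GenomicRanges in the study's methods and to featureCounts in the submitters' processing notes, and its use of strand is not stated. The deposited counts are raw read numbers per gene (22524 genes, 27 libraries). Symbols and positions came from GENCODE vM21 (GRCm38).

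CPM were computed after TMM, and divided by exon length to compare genes. Tests used edgeR 4.0.16 in R 4.3.3 (quasi-likelihood, no covariate, only the groups compared) on genes reaching 10 counts in 50% of the libraries of any group, and Benjamini-Hochberg adjusted p under 0.05 was called. Folds against a group at or under the floor of 3 counts per library are the mean CPM of the higher group over the highest floor of the lower, and floors cover counting error only. All members were eligible for naming, with values for those detected in 50% of the libraries of a cell type, beside pathway and marker genes. The members and lists were chosen with earlier results of these data known, and 1 marker gene of a list is not reported here and was left out of its sum. The libraries of an organoid culture come from the same mouse, hence pairs (mean r of their deviations 0.172, from 0.0827 to 0.311 over 9 pairs, and -0.0201 for other libraries). Alternatives were DESeq2 1.42.0, no low-count filter, all 27 libraries in 1 fit, the culture as a block, the treatment exchanged within pairs, and each culture left out. Scripts were tested on simulated counts (200 genes changed).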

Additional observations from a re-analysis of the deposited data

Results flagged for a closer look

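Of 26 groups of 9 organoid libraries examined for a library far from the others (13 members, 2 labels), 5 held one by Dixon's criterion. Chance meets it in about 1 of 20 groups of independent, normally distributed values. The groups here share libraries and some values lie near the floor, so that this rate need not hold for them. Wnt3 in GF culture Z919 labelled TNF-treated was at 20.0 CPM, where the 8 others ranged from 5.34 to 9.56 CPM. Fzd1 in GF culture Z919 labelled untreated was at 14.9 CPM, against 5.10 to 9.89 CPM. Fzd9 in the same library was at 6.83 CPM, against 0 to 2.02 CPM, and in SE culture Z911 labelled TNF-treated it was at 5.25 CPM, against 0.0399 to 0.765 CPM. Wnt9b in GF culture Z918 labelled TNF-treated was at 2.98 CPM, against 0 to 1.40 CPM.

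Of the 13 members that passed the filter on low counts in organoids by label, 2 were such that every culture of one facility moved one way by treatment label and every culture of another the opposite way. For Fzd6 the median log2 ratio of the library labelled TNF-treated over the one labelled untreated was -0.54 in the 3 SR cultures and 0.11 in the 3 GF cultures, a difference of -0.64 (SR minus GF). For Sfrp5 it was 0.61 in the 3 SE cultures and -0.43 in the 3 GF cultures, a difference of 1.04 (SE minus GF). These differences between single facilities were not tested. With 3 cultures in a facility such a pattern can arise by chance, and the share of all genes that show it is not given.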

How the results depend on the processing

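The numbers of members called held within 1.5 times under every alternative run in 8 of the 9 comparisons. The exception was GF against SPF organoids, where all 27 libraries in 1 fit gave 1 member (Wnt7b) in place of 0, and the cause was not tested. Leaving out each culture gave 11 to 13 members for organoids against m-ICc12 cells, 16 to 18 for organoids against MEFs and 15 to 16 for m-ICc12 cells against MEFs, and 0 in the other 6 comparisons. Of 48 called fold changes, with 665 values under alternatives, 638 kept direction and call, 27 kept the direction without the call, and 0 reversed. The calls lost somewhere were 8, namely Wnt5a, Fzd1 and Fzd7 (organoids against m-ICc12 cells), Wnt4 and Fzd3 (organoids against MEFs), and Fzd8, Fzd5 and Wnt2b (m-ICc12 cells against MEFs). For Wnt5a the adjusted p was 0.080 in DESeq2, 0.064 without the filter, 0.084 with the treatment exchanged within pairs, and 0.052 to 0.15 without any of 5 organoid cultures (Z909, Z911, Z912, Z913 and Z919) or any m-ICc12 replicate. It was 0.072 for Fzd1 without m-ICc12 replicate 1 and 0.092 for Fzd7 without replicate 2, 0.061 to 0.081 for Fzd3 without any 1 MEF replicate, and 0.23 for Wnt4 in DESeq2 and 0.062 without MEF replicate 1. Between m-ICc12 cells and MEFs it was 0.053 to 0.12 for Fzd8 without m-ICc12 replicate 1 or 3 or MEF replicate 1 or 2. With all 27 libraries in 1 fit it was 0.16 for Fzd8, against 0.026 in the main fit. For Fzd5 it was 0.073 to 0.12 without m-ICc12 replicate 2 or 3 or MEF replicate 3. For Wnt2b it was 0.053 without MEF replicate 2. All these are adjusted p-values of edgeR except where DESeq2 is named.

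With the culture as a replicate block, 0 members were called in each comparison by treatment label, as without it, while over all genes it gave 397 calls instead of 168 for organoids, 6 instead of 13 for m-ICc12 cells and 103 instead of 21 for the comparison of the responses. Calls over all genes also moved for m-ICc12 cells by label (46 in DESeq2, 30 without the filter, 35 with all libraries, 93 without replicate 2), for GF against SPF (4, but 21 in DESeq2, 26 with all libraries, 2 without any 1 GF culture), for SR against SE (0, but 8 in DESeq2, 5 without the filter, 2 with all libraries, 1 with the treatment exchanged, up to 35 with a culture left out), and for the comparison of the responses (71 in DESeq2, 11 to 40 with a culture left out). The response by donor gave 1 in DESeq2 instead of 0. In m-ICc12 cells the same-numbered libraries hardly deviated together (mean r 0.0306, -0.00638 to 0.0907). With 3 pairs this cannot show whether they share more than a number. Leaving out each culture gave r of 0.365 to 0.698 for Wnt3 with the Paneth markers, -0.253 to 0.409 with Lgr5 and 0.528 to 0.793 with Axin2, and without SE culture Z913 the last passed after adjustment (r = 0.793, exact permutation p = 0.0153, adjusted 0.0458). Depth limits the low members: the floor of 3 counts was worth up to 0.523 CPM, and most ligands of organoids lay near it. With 3 libraries in a reference group, single calls at low counts rest on few reads.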
